A study of Arabidopsis thaliana with 9 samples.

Results

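The class III peroxidases of Arabidopsis, secreted heme enzymes of the plant cell wall, were followed in root mRNA-seq libraries of 3 genotypes. The set was 60 loci given as a list of identifiers, each with a row in all 9 count tables, out of 28775 loci listed. The list was drawn up by gene family with earlier results of these data known, and whether it holds the whole family was not checked. In the reference annotation 58 of the 60 carry peroxidase in their product name, and the other 2 are RHS18 (AT5G22410) and RHS19 (AT5G67400), named there for root hair expression. The genotypes, each with 3 libraries of root tissue from plants grown for 2 weeks, were 35S:miR858, which overexpresses the microRNA miR858, 35S:rMYB83, which overexpresses a form of the transcription factor MYB83 that miR858 does not target, and the Col-0 wild type that carries neither transgene. The 35S promoter is active in most plant tissues, so neither transgene is limited to one root cell type, and the number of independent transgenic lines behind each genotype is not stated in the labels. The series is about cyst nematode parasitism, but no label names an infection. The labels do not state whether the 3 libraries of a genotype came from separately grown plants, so the p-values reflect library-to-library spread, which may be technical.

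Class III peroxidases use hydrogen peroxide to oxidise phenolic compounds in the apoplast. They couple monolignols into lignin and cross-link structural wall proteins such as extensins, which stiffens the wall, and they can also generate reactive oxygen species that loosen it or serve in defence. In roots, particular members act in the Casparian strip, the lignin ring that seals the endodermis, in xylem vessels, in root hairs and in the oxidative burst. NADPH oxidases and superoxide dismutases supply their hydrogen peroxide. MYB83 is a switch of secondary wall formation in xylem, and miR858 guides the cleavage of many MYB transcripts.

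Gene counts per library were between 5313656 and 10648857. MYB83 had 1.56, 1.53 and 1.5 CPM in 35S:miR858, 134, 97.9 and 102 in 35S:rMYB83 and 0.947, 2.17 and 0.722 in Col-0, so the transgene label of 35S:rMYB83 was met in all 3 libraries, and the MIR858A precursor had 14.4, 25.6 and 24.4 CPM in 35S:miR858 and 0 counts in the other 6 libraries. CPM are counts scaled to a common library size with TMM factors. Transcripts of 20 green shoot genes took 0.0791% to 0.219% of the counts except in 35S:rMYB83 replicate 1 (0.833%) and Col-0 replicate 1 (0.482%), and no marker of the Casparian strip, root hair or xylem vessel lists was at 0 in every library of a genotype. These are whole roots, in which fewer cells of a type and less RNA per cell cannot be told apart.

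The peroxidases together took 0.885% to 0.908% of gene counts in 35S:miR858, 0.6315% to 0.7452% in 35S:rMYB83 and 0.7154% to 0.9181% in Col-0. Their summed level was 9366 ± 383.4 CPM in 35S:miR858, 6960 ± 535 CPM in 35S:rMYB83 and 7751 ± 1295 CPM in Col-0 (SD, n = 3), and the range of Col-0 overlapped that of 35S:rMYB83. AT4G21960 (PRXR1) alone supplied 21.69% to 22.49% of the summed counts in 35S:miR858, 23.49% to 23.91% in 35S:rMYB83 and 40.81% to 46.67% in Col-0. With AT4G21960 left out, the sums were 7025 to 7648 CPM in 35S:miR858, 4853 to 5576 CPM in 35S:rMYB83 and 3790 to 4958 CPM in Col-0. The other members together were thus higher in every 35S:miR858 library than in any Col-0 library, while 35S:rMYB83 and Col-0 overlapped.

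**Figure D1:**
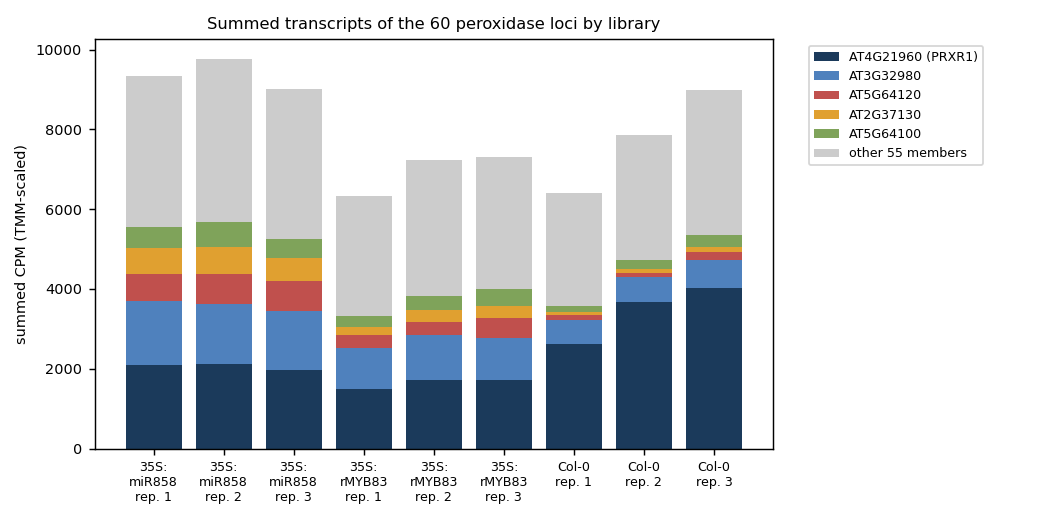
Summed CPM of the 60 peroxidase loci in each library, stacked by the 5 named members and the other 55 together; the vertical axis is in TMM-scaled CPM and each bar is 1 library, with 35S:miR858 on the left, 35S:rMYB83 in the middle and Col-0 on the right. The AT4G21960 segment reaches 2613 to 4028 CPM in Col-0 and stays between 1490 and 2119 CPM in the libraries of both overexpression lines.

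Levels of different genes were compared per kilobase of exon. AT4G21960 stood highest in each genotype, at 1129 ± 41.5 CPM per kilobase in 35S:miR858, 901 ± 75 in 35S:rMYB83 and 1879 ± 402 in Col-0 (SD, n = 3). AT3G32980 was next in each, at 990.0 ± 45.5 CPM per kilobase in 35S:miR858, 693 ± 29.3 in 35S:rMYB83 and 422 ± 33.8 in Col-0. In 35S:miR858 the libraries of these 2 genes lay between 1081 and 1158 and between 952.4 and 1041 CPM per kilobase, a small gap beside the one in Col-0, where they lay between 1429 and 2202 and between 395.5 and 460.2. The next 4 in Col-0 were AT3G01190 (186 ± 80.3), AT4G37520 (185 ± 28.6), AT5G64100 (154 ± 37.5) and AT5G19890 (144 ± 86.9), whose Col-0 libraries overlapped one another in this order. In 35S:miR858 the next places after AT3G32980 were instead taken by AT5G64120 (549.9 ± 34, against 104 ± 37.6 in Col-0) and AT2G37130 (386 ± 32.4, against 61.2 ± 16.4 in Col-0), of which AT2G37130 overlapped with AT5G64100 (378 ± 57.8).

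**Figure D2:**
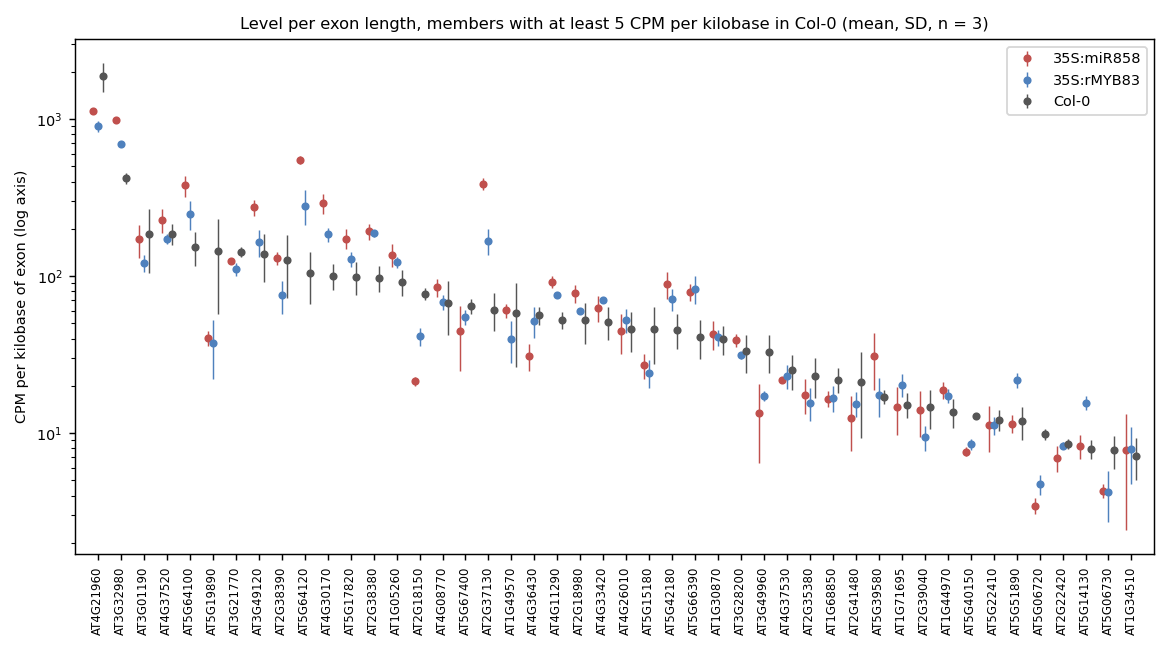
Level per kilobase of exon (log axis, TMM-scaled CPM per kilobase; mean and SD, n = 3) of the 46 members with at least 5 CPM per kilobase in Col-0, ordered by the Col-0 level, with 35S:miR858, 35S:rMYB83 and Col-0 side by side for each gene. AT4G21960 and AT3G32980 lead in each genotype, and AT5G64120 and AT2G37130 stand well above their Col-0 level in both overexpression lines.

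Individual members were tested with edgeR's quasi-likelihood F test in one fit of all 9 libraries and 19496 genes, with Benjamini-Hochberg adjustment over all of them and a call at an adjusted p under 0.05. Of the 60 loci, 51 had enough counts for the test. In 35S:miR858 against Col-0, 14 members rose, 9 fell and 28 missed the threshold, and over all genes 11.6% rose and 13.5% fell. Their median log2 fold change was 0.022, against -0.018 over all genes. In 35S:rMYB83 against Col-0, 11 members rose, 6 fell and 34 missed it, where 6.7% of all genes rose and 9.73% fell, and the medians were 0.035 for the members and 0.0065 for all genes. Set directly against each other, 35S:rMYB83 had 4 members higher and 3 lower than 35S:miR858 and 44 that did not pass, where 2.5% of all genes were higher and 1.54% lower, with medians of -0.11 for the members and 0.0049 for all genes. The share of members higher was above that of all genes in both comparisons with Col-0, which use the same 3 Col-0 libraries, and the share lower was near it. When libraries were scaled by their totals only, the all-gene median shifted by -0.144 in 35S:miR858 and -0.103 in 35S:rMYB83. Then 12 members rose and 12 fell in 35S:miR858, where 1355 of all genes rose and 4148 fell (2271 and 2629 in the main fit). In 35S:rMYB83 11 members rose and 10 fell, where 842 of all genes rose and 2771 fell (1306 and 1897 in the main fit). With the replicate number as a block, 13 members rose and 10 fell in 35S:rMYB83, where 1368 of all genes rose and 1947 fell. Single libraries also moved the counts. Without 35S:miR858 replicate 2, 5 members and 1975 of all genes fell in 35S:miR858. Without Col-0 replicate 1, 11 members and 2254 of all genes fell in 35S:rMYB83. In the direct comparison 2 members were higher without 35S:miR858 replicate 2, 35S:rMYB83 replicate 1 or 35S:rMYB83 replicate 2. Of all genes 238, 313 and 263 were higher in these fits (488 in the main fit). Without Col-0 replicate 1, 5 members and 398 of all genes were lower. Without 35S:rMYB83 replicate 1, 1 member and 96 of all genes were lower (301 genes in the main fit).

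**Figure D3:**
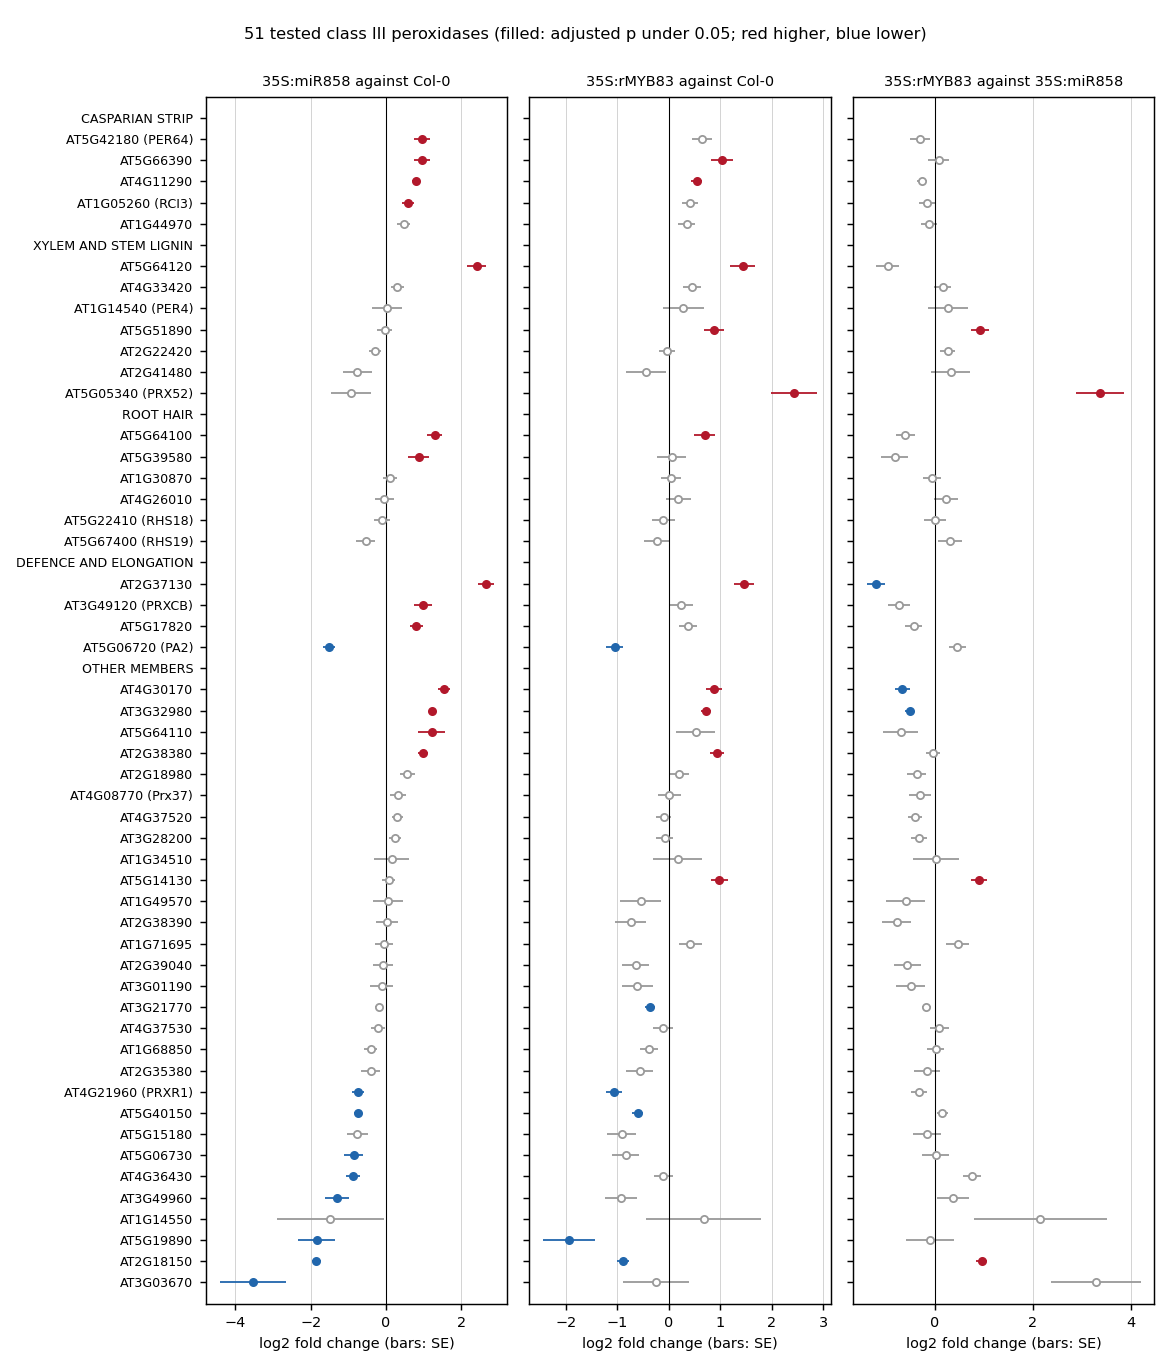
Log2 fold change of the 51 tested peroxidases in the 3 comparisons (bars are SE, n = 3 libraries per genotype), grouped by role. Filled points passed at an adjusted p under 0.05 in edgeR, red for higher and blue for lower, and open points did not pass. In the panel of 35S:miR858 against Col-0, 4 of 5 Casparian strip members are red. There 8 of the 9 blue points stand among members without an assigned role, a group that holds 29 of the 51 tested members. These blue points include AT3G49960, which is enriched in root hair cells. The role groups were chosen with earlier results of these data known.

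The upstream sequences of the 4 members with the largest change of non-overlapping groups in each direction against Col-0 are shown because MYB83 binds a known 7-base element, the SMRE, in the promoters of its targets. Each runs from 250 bases before to 50 bases after the annotated start, on the minus strand of TAIR10.1, from the RefSeq genome, with SMRE matches in capitals. They belong to AT2G37130 (chr2:15600105-15600404), the largest rise in 35S:miR858, AT5G05340 (chr5:1580826-1581125), the largest rise in 35S:rMYB83, AT3G03670 (chr3:903362-903661), the largest fall in 35S:miR858, and AT4G21960 (chr4:11648595-11648894), the largest fall in 35S:rMYB83.
AT2G37130: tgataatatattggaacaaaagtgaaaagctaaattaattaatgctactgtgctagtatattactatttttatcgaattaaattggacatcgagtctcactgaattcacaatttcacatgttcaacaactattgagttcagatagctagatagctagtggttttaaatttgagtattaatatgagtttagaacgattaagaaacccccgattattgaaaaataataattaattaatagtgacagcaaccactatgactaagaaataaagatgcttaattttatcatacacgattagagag
AT5G05340: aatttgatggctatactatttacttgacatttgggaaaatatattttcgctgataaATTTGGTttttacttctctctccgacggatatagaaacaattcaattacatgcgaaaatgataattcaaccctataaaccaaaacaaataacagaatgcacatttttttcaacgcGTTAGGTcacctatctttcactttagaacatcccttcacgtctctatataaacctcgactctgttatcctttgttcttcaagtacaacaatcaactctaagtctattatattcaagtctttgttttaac
AT3G03670: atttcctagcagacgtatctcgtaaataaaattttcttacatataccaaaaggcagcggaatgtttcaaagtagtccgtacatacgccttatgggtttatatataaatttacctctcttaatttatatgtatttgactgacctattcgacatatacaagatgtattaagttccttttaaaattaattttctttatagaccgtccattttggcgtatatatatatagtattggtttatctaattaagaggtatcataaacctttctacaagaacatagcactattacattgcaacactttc
AT4G21960: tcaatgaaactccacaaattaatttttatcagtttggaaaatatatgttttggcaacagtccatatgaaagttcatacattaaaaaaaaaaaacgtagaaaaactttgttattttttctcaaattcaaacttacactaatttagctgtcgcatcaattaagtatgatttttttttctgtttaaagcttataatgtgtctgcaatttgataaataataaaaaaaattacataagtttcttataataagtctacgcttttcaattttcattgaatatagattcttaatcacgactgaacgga
The search used 8 words on both strands, ACCAAAC or ACCAAAT or ACCAACC or ACCAACT or ACCTAAC or ACCTAAT or ACCTACC or ACCTACT, none of which contains another. The window of AT5G05340 holds 2 of them, read here on the opposite strand as ATTTGGT and as GTTAGGT, and the other 3 windows hold none. A match was present in 20 of 60 member windows (33.3%) and in 9228 of the 27443 windows of all nuclear protein-coding genes (33.6%). Of the 20 tested members with a match, 3 rose and 2 fell in 35S:rMYB83. Of the 31 tested members without one, 8 rose and 4 fell there, where 6.7% of all genes rose and 9.73% fell.

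Most peroxidases of the Casparian strip rose in 35S:miR858, and some also rose in 35S:rMYB83. The group had 5 members, AT5G42180 (PER64), AT5G66390 (PRX72), AT4G11290, AT1G05260 (RCI3) and AT1G44970, which are needed together for lignin of the strip. In 35S:miR858 4 rose and 1 did not pass, with a median log2 of 0.81, where 11.6% of all genes rose. In 35S:rMYB83 2 rose and 3 did not pass, with a median of 0.54, where 6.7% of all genes rose.
PER64, which is anchored at the strip, had 94.3, 133 and 99.2 CPM in 35S:miR858, 83.2, 103 and 76.7 in 35S:rMYB83 and 40.4, 61.9 and 66.3 in Col-0. Every library of both lines lay above the 3 of Col-0, and the lines overlapped each other. The rise was 1.94-fold in 35S:miR858 (log2 0.95, SE 0.20, adjusted p = 0.00742), and the value in 35S:rMYB83 was log2 0.64 (SE 0.20, adjusted p = 0.0575). In 35S:rMYB83 it passed with the replicate number as a block (adjusted p = 0.0195), in DESeq2 (adjusted p = 0.0174) and without 35S:miR858 replicate 2 (adjusted p = 0.048).
AT5G66390, also annotated to lignin synthesis, had 109, 129 and 103 CPM in 35S:miR858, 117, 145 and 96.9 in 35S:rMYB83 and 41.6, 60.7 and 74.3 in Col-0. It rose 1.93-fold in 35S:miR858 (log2 0.95, SE 0.21, adjusted p = 0.00903) and 2.04-fold in 35S:rMYB83 (log2 1.02, SE 0.21, adjusted p = 0.00957), with no overlap with Col-0 in either line.
AT4G11290 had 135, 113 and 121 CPM in 35S:miR858, 105, 100.4 and 102 in 35S:rMYB83 and 61, 71.9 and 78.2 in Col-0. The 3 genotypes did not overlap, with 35S:miR858 highest, and the gene rose by log2 0.81 in 35S:miR858 (SE 0.11, adjusted p = 0.000628) and 0.54 in 35S:rMYB83 (SE 0.11, adjusted p = 0.00789).
RCI3, a cold-inducible member, had 175, 198 and 143 CPM in 35S:miR858, 152, 167 and 141 in 35S:rMYB83 and 91.7, 135 and 119 in Col-0. Its rise in 35S:miR858 was log2 0.57 (SE 0.16, adjusted p = 0.0238), and this call was lost without Col-0 replicate 1 or 3 or without 35S:miR858 replicate 1 or 2, with an adjusted p of up to 0.0819. In 35S:rMYB83 its value was 0.41 (adjusted p = 0.109). AT1G44970 had 24.8, 31.6 and 27.9 CPM in 35S:miR858 and 15.4, 23.2 and 22.5 CPM in Col-0, groups that did not overlap, at log2 0.47 (adjusted p = 0.0675).
The summed level of 10 other Casparian strip markers, such as CASP1 and ESB1, was 413 to 522 CPM in 35S:miR858, 357 to 431 in 35S:rMYB83 and 238 to 373 in Col-0. The 35S:miR858 range lay above Col-0, while that of 35S:rMYB83 overlapped both. Of the 9 tested markers 3 rose in 35S:miR858 and 1 in 35S:rMYB83, and the rest did not pass. None was at 0 in every library of a genotype, and the part of these cells in the peroxidase values was not tested. The transcript at PER64 is uncertain in part, since AT5G42190 overlaps it on the other strand and no label says whether the counting used strand.

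Among 7 tested members linked to lignin of xylem and stem, 1 rose in 35S:miR858 and 3 rose in 35S:rMYB83, and the rest did not pass. The share of all genes that rose was 11.6% in 35S:miR858 and 6.7% in 35S:rMYB83.
PRX52 (AT5G05340), which acts in lignification of interfascicular fibres in the stem, had 0.72, 3.45 and 1.83 CPM in 35S:miR858, 30.1, 19.6 and 12.8 in 35S:rMYB83 and 5.16, 2.35 and 3.85 in Col-0. All 3 libraries of 35S:rMYB83 stood above every other library, and the values of 35S:miR858 and Col-0 overlapped near the low end. It was 5.41-fold higher in 35S:rMYB83 than in Col-0 (log2 2.44, SE 0.45, adjusted p = 0.00548), the largest rise of any member there, while in 35S:miR858 the value was log2 -0.94 (SE 0.52, adjusted p = 0.227). The locus spans 1578869 to 1580875 of chromosome 5, minus strand, and the upstream window shown above holds 2 SMRE matches.
AT5G51890, annotated to lignification of tracheary elements in roots, had 12.3, 16 and 14.8 CPM in 35S:miR858, 27.6, 29.8 and 24 in 35S:rMYB83 and 10.7, 16.7 and 17.1 in Col-0. Again only the 35S:rMYB83 libraries stood apart, 1.83-fold above Col-0 (log2 0.88, SE 0.19, adjusted p = 0.0109), and 35S:miR858 was at log2 -0.04 (adjusted p = 0.907). This gene overlaps AT5G51880 on the other strand.
AT5G64120 (PRX71), a wall-bound member induced by hypo-osmolarity, had 685, 763 and 765 CPM in 35S:miR858, 317, 328 and 488 in 35S:rMYB83 and 114, 107 and 198 in Col-0. Its 3 genotypes did not overlap, with 35S:miR858 highest and Col-0 lowest. It rose 5.3-fold in 35S:miR858 (log2 2.40, SE 0.25, adjusted p = 0.000172) and 2.71-fold in 35S:rMYB83 (log2 1.44, SE 0.24, adjusted p = 0.00365).
The other 4 tested were AT4G33420, PER4 (AT1G14540), AT2G22420 and AT2G41480 (PRX25), with log2 values of 0.30, 0.02, -0.29 and -0.77 in 35S:miR858 and 0.46, 0.28, -0.03 and -0.44 in 35S:rMYB83, and all had an adjusted p of at least 0.107. Without Col-0 replicate 1, which had a high share of green transcripts, AT4G33420 passed in both lines, so that 2 members of the group rose in 35S:miR858. AT4G33420 overlaps AT4G33430 on the other strand.
The 10 xylem vessel markers, such as XCP1 and CESA4, summed to 315 to 345 CPM in 35S:miR858, 376 to 485 in 35S:rMYB83 and 211 to 405 in Col-0. Of these, 1 rose in 35S:rMYB83, none was at 0 in every library of a genotype, and the part of vessel cells in these values was not tested.

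**Figure D4:**
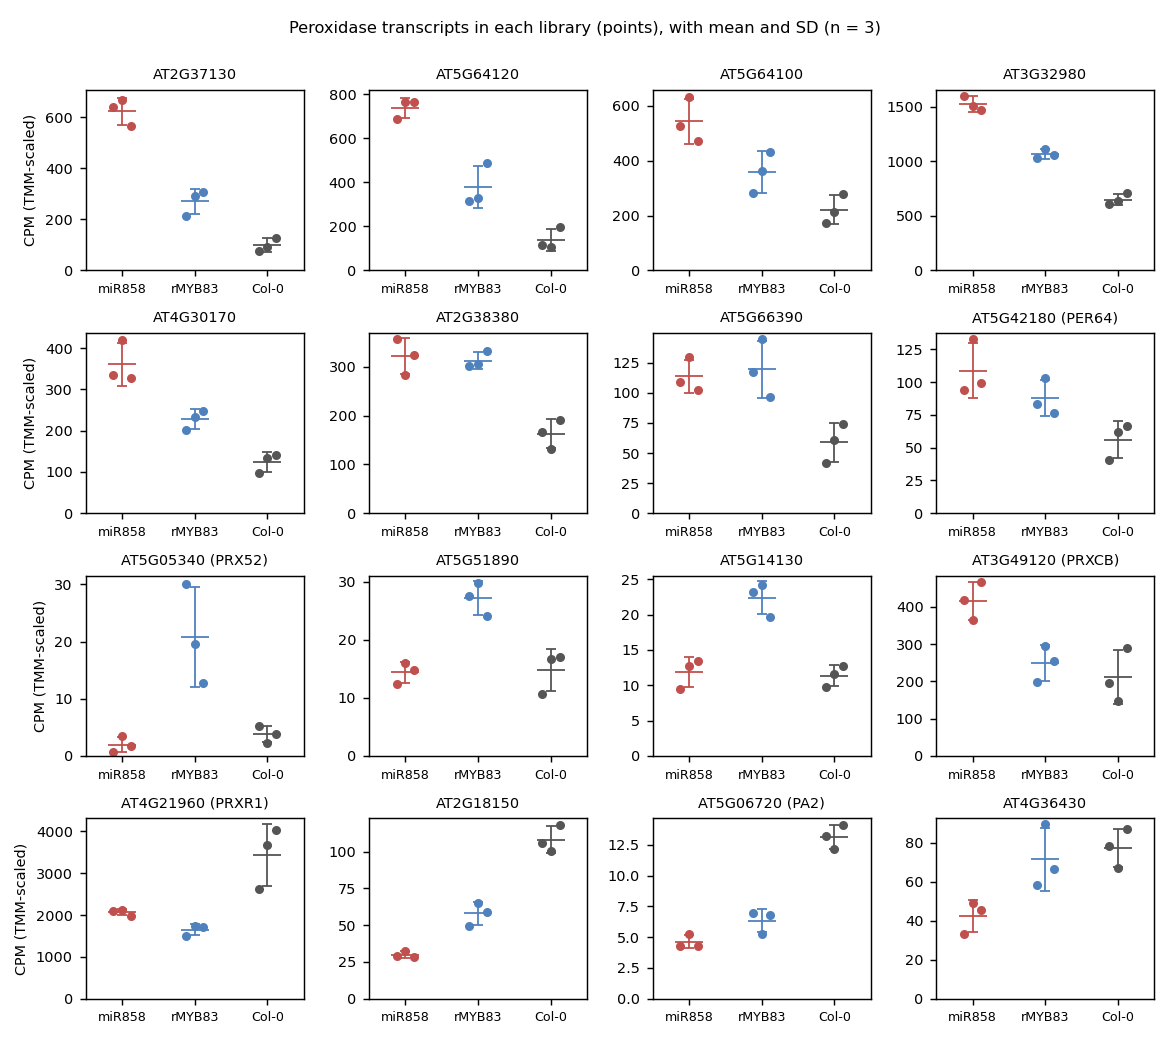
TMM-scaled CPM of 16 peroxidases in each library (points), with the mean and SD of the 3 libraries of each genotype, 35S:miR858 on the left, then 35S:rMYB83 and Col-0; each panel has its own linear axis from 0. AT2G37130 and AT5G64120 step down from 35S:miR858 through 35S:rMYB83 to Col-0, AT5G05340, AT5G51890 and AT5G14130 are highest in 35S:rMYB83, and AT4G21960, AT2G18150 and AT5G06720 are highest in Col-0.

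Of 6 tested members tied to root hairs, 2 rose in 35S:miR858 and 1 in 35S:rMYB83, where 11.6% and 6.7% of all genes rose. AT3G49960, which is enriched in root hair cells too, was grouped with the members given no role and passed as lower in 35S:miR858 (log2 -1.30).
AT5G64100 had 527, 634 and 471 CPM in 35S:miR858, 281, 361 and 433 in 35S:rMYB83 and 172, 213 and 279 in Col-0. The 3 genotypes did not overlap. The rise was 2.45-fold in 35S:miR858 (log2 1.29, SE 0.21, adjusted p = 0.00165) and 1.62-fold in 35S:rMYB83 (log2 0.69, SE 0.20, adjusted p = 0.044). The call in 35S:rMYB83 was lost without Col-0 replicate 1 or 2, without 35S:miR858 replicate 1 or without 35S:rMYB83 replicate 2 or 3, and with only the 2 genotypes in the fit, with an adjusted p of up to 0.145.
AT5G39580 had 26.8, 58.2 and 36.1 CPM in 35S:miR858, 16.6, 22.2 and 29.1 in 35S:rMYB83 and 21.3, 20.4 and 24.6 in Col-0. All 3 libraries of 35S:miR858 lay above Col-0, those of 35S:rMYB83 lay around it, and the rise in 35S:miR858 was log2 0.87 (SE 0.27, adjusted p = 0.0418). This call was lost in 8 of 16 alternative analyses, which included leaving out any 1 library of Col-0, 35S:miR858 replicate 2 or 3, or 35S:rMYB83 replicate 2, with an adjusted p of up to 0.156.
RHS18 and RHS19, both named for root hair expression, had log2 values of -0.11 and -0.54 in 35S:miR858 and -0.11 and -0.24 in 35S:rMYB83 and did not pass, although RHS19 passed as lower in 35S:miR858 when 35S:miR858 replicate 1 was left out. AT1G30870 and AT4G26010, also linked to root hairs, were at 0.10 and -0.05 in 35S:miR858 and 0.04 and 0.19 in 35S:rMYB83. RHS19, AT1G30870 and AT4G26010 each overlap a gene on the other strand. The 10 root hair markers summed to 351 to 567 CPM in 35S:miR858, 425 to 484 in 35S:rMYB83 and 405 to 572 in Col-0, ranges that overlap, and the part of hair cells in these values was not tested.

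All 4 tested members linked to defence, the oxidative burst or cell elongation passed in 35S:miR858, 3 higher and 1 lower. In 35S:rMYB83 1 passed as higher (2 with the replicate block), 1 as lower and 2 did not pass. The shares of all genes were 11.6% higher and 13.5% lower in 35S:miR858, and 6.7% and 9.73% in 35S:rMYB83.
AT2G37130, annotated to defence against fungi, had 639, 667 and 565 CPM in 35S:miR858, 214, 290.1 and 307 in 35S:rMYB83 and 75.7, 93 and 128 in Col-0. The 3 genotypes did not overlap. It was 6.32-fold higher in 35S:miR858 than in Col-0 (log2 2.66, SE 0.20, adjusted p = 4.11e-05) and 2.74-fold higher in 35S:rMYB83 (log2 1.46, SE 0.20, adjusted p = 0.00119). The locus spans 15597921 to 15600154 of chromosome 2, minus strand, and no SMRE match was found in the upstream window shown above.
PRXCB (AT3G49120), which with its neighbour PRXCA makes hydrogen peroxide in the pathogen-triggered burst and promotes cell elongation in roots, had 419.5, 364 and 466 CPM in 35S:miR858, 199, 294 and 255 in 35S:rMYB83 and 196, 147 and 289 in Col-0. Its 35S:miR858 libraries lay above all of Col-0 while those of 35S:rMYB83 overlapped Col-0. It rose by log2 0.98 in 35S:miR858 (SE 0.23, adjusted p = 0.0121), against 0.24 in 35S:rMYB83 (SE 0.23, adjusted p = 0.524). PRXCA (AT3G49110) had only 2 to 16 counts per library and was not tested.
AT5G17820 had 220.4, 288 and 233 CPM in 35S:miR858, 161, 198 and 190.1 in 35S:rMYB83 and 104, 171 and 149 in Col-0. It rose by log2 0.80 in 35S:miR858 (SE 0.18, adjusted p = 0.00913), and in 35S:rMYB83, which overlapped Col-0, it was at 0.37 (SE 0.18, adjusted p = 0.193), and passed as higher there with the replicate number as a block (log2 0.39, adjusted p = 0.0417).
PA2 (AT5G06720), annotated to the wound response and to the syncytium, the feeding site of cyst nematodes, went the other way, with 4.32, 5.24 and 4.3 CPM in 35S:miR858, 6.99, 5.25 and 6.8 in 35S:rMYB83 and 13.2, 12.1 and 14.1 in Col-0. Every library of both lines lay below every Col-0 library. It fell by 1.51 on the log2 scale in 35S:miR858 (SE 0.17, adjusted p = 0.000222) and by 1.05 in 35S:rMYB83 (SE 0.16, adjusted p = 0.00233).

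The remaining 35 members were placed in no role group, and 29 of them were tested. Those that rose numbered 4 in 35S:miR858 and 4 in 35S:rMYB83, where 11.6% and 6.7% of all genes rose. Those that fell numbered 8 in 35S:miR858 and 5 in 35S:rMYB83, where 13.5% and 9.73% of all genes fell. No call was made for 17 in 35S:miR858 and 20 in 35S:rMYB83. Falls numbered 4 in 35S:miR858 when its replicate 2 was left out and 5 when Col-0 replicate 3 or 35S:miR858 replicate 3 was. Over all genes 1975, 1999 and 2068 fell in these 3 fits. In 35S:rMYB83 the group had 9 falls with the replicate block and 10 when Col-0 replicate 1 was left out. It had 3 when Col-0 replicate 3 or 35S:rMYB83 replicate 1 was. The all-gene falls were 1947, 2254, 1223 and 1434 in this order.
AT3G32980, next after AT4G21960 in level, had 1604, 1505 and 1468 CPM in 35S:miR858, 1029, 1117 and 1056 in 35S:rMYB83 and 609, 634 and 709 in Col-0. It rose 2.34-fold in 35S:miR858 (log2 1.23, SE 0.10, adjusted p = 4.23e-05) and 1.64-fold in 35S:rMYB83 (log2 0.71, SE 0.095, adjusted p = 0.00113), and the 3 genotypes did not overlap.
AT4G30170 had 335, 421 and 327 CPM in 35S:miR858, 201, 234 and 248 in 35S:rMYB83 and 97.2, 133 and 142 in Col-0, also with no overlap. It was 2.91-fold higher in 35S:miR858 (log2 1.54, SE 0.16, adjusted p = 0.000168) and 1.84-fold higher in 35S:rMYB83 (log2 0.88, SE 0.16, adjusted p = 0.00498).
AT2G38380 had 356, 284 and 325 CPM in 35S:miR858, 301, 305 and 332 in 35S:rMYB83 and 167, 131 and 191 in Col-0. The lines overlapped each other but not Col-0, and the rise was 1.97-fold in 35S:miR858 (log2 0.98, SE 0.14, adjusted p = 0.000907) and 1.92-fold in 35S:rMYB83 (log2 0.94, SE 0.14, adjusted p = 0.00194). Its neighbour AT2G38390, with which it shares 0.678% of its 50-base exon windows, overlapped Col-0 in both lines (log2 0.03 in 35S:miR858 and -0.75 in 35S:rMYB83). Without Col-0 replicate 1 AT2G38390 passed as lower in 35S:rMYB83 (log2 -1.045, adjusted p = 0.00611). Against 35S:miR858 it passed as lower in 35S:rMYB83 in 3 of 16 alternatives.
AT5G64110 had 9.95, 9.85 and 14.7 CPM in 35S:miR858, 4.54, 5.99 and 10.4 in 35S:rMYB83 and 6.8, 2.8 and 5.3 in Col-0. Its rise in 35S:miR858 was log2 1.21 (SE 0.36, adjusted p = 0.0342), lost in 7 of 16 alternatives, which included leaving out Col-0 replicate 2 or 3, any 1 library of 35S:miR858, or 35S:rMYB83 replicate 2, with an adjusted p of up to 0.129.
AT5G14130 had 9.47, 12.8 and 13.4 CPM in 35S:miR858, 23.2, 24.2 and 19.7 in 35S:rMYB83 and 9.72, 11.7 and 12.8 in Col-0. It rose in 35S:rMYB83 (log2 0.98, SE 0.16, adjusted p = 0.00335), which did not overlap with Col-0, and stood at log2 0.07 in 35S:miR858 (adjusted p = 0.803). AT5G14120 overlaps it on the other strand.

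Among the members that fell, AT4G21960 (PRXR1) carried most transcripts, with 2098, 2119 and 1978 CPM in 35S:miR858, 1490, 1730 and 1724 in 35S:rMYB83 and 2613, 3670 and 4028 in Col-0. All libraries of both lines lay below the lowest Col-0 library. It fell by 0.74 on the log2 scale in 35S:miR858 (SE 0.16, adjusted p = 0.00756) and by 1.06 in 35S:rMYB83 (SE 0.16, adjusted p = 0.00196), or 1.67-fold and 2.08-fold. The locus spans 11646109 to 11648644 of chromosome 4, minus strand.
AT2G18150 had 28.9, 32.5 and 28.7 CPM in 35S:miR858, 49.7, 65.4 and 59.2 in 35S:rMYB83 and 106, 100.5 and 118 in Col-0. Its 3 genotypes did not overlap, with 35S:miR858 lowest. It was 3.6-fold lower in 35S:miR858 (log2 -1.85, SE 0.12, adjusted p = 2.58e-05) and 1.86-fold lower in 35S:rMYB83 (log2 -0.89, SE 0.11, adjusted p = 0.000918).
AT5G40150 had 12.6, 11.4 and 11.3 CPM in 35S:miR858, 14.4, 12.5 and 12.4 in 35S:rMYB83 and 19.8, 19.7 and 19.7 in Col-0. Both lines lay below Col-0, whose 3 libraries were nearly alike, and the gene fell by 0.75 in 35S:miR858 (SE 0.11, adjusted p = 0.000929) and by 0.60 in 35S:rMYB83 (SE 0.11, adjusted p = 0.00473) on the log2 scale. AT5G40153 overlaps it on the other strand.
AT4G36430 had 33, 49 and 45.3 CPM in 35S:miR858, 58.4, 89.6 and 66.4 in 35S:rMYB83 and 78.1, 67.1 and 86.8 in Col-0. It fell in 35S:miR858 (log2 -0.87, SE 0.19, adjusted p = 0.0082), whose libraries were all below Col-0, and 35S:rMYB83 overlapped Col-0 (log2 -0.11, adjusted p = 0.739).
AT3G21770 had 158, 157 and 151 CPM in 35S:miR858, 121, 145 and 145 in 35S:rMYB83 and 163, 183 and 185 in Col-0. Its fall in 35S:rMYB83 was 0.37 on the log2 scale (SE 0.094, adjusted p = 0.0248), a call that ended without Col-0 replicate 2 or 3 or 35S:rMYB83 replicate 1, with an adjusted p of up to 0.0842.

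The other falls in 35S:miR858 rested on fewer counts or on single libraries. AT3G03670, the largest fall in fold, had 2, 2 and 2 counts in 35S:miR858, 19, 18 and 15 in 35S:rMYB83 and 35, 5 and 45 in Col-0. It was 11.6-fold lower in 35S:miR858 than in Col-0 (log2 -3.54, SE 0.88, adjusted p = 0.0159), and the call ended without 35S:miR858 replicate 2 or 3, with an adjusted p of up to 0.054. With the 35S:rMYB83 libraries left out of the fit, its counts were too low for the count filter and it was not tested.
AT3G49960, the member enriched in root hair cells, had 30.1, 13.7 and 12.6 CPM in 35S:miR858, 22.9, 23.3 and 26.4 in 35S:rMYB83 and 31.8, 52.8 and 54 in Col-0. Both lines lay below Col-0. It was 2.46-fold lower in 35S:miR858 (log2 -1.30, SE 0.32, adjusted p = 0.0144), a call lost without Col-0 replicate 3 or 35S:miR858 replicate 2 (adjusted p up to 0.0538), and its log2 value stood at -0.93 in 35S:rMYB83 (SE 0.31, adjusted p = 0.0739), where it passed as lower in 5 of 16 alternatives.
AT5G06730, a neighbour of PA2, had 6.48, 6.39 and 5.38 CPM in 35S:miR858, 3.59, 6.84 and 7.59 in 35S:rMYB83 and 9.21, 9.95 and 14.1 in Col-0, also with both lines below Col-0. It fell by 0.86 in 35S:miR858 (SE 0.26, adjusted p = 0.0364), a call lost without Col-0 replicate 2 or 3 or any 1 library of 35S:miR858 (adjusted p up to 0.129), and was at -0.84 in 35S:rMYB83 (adjusted p = 0.0552), where it passed as lower in 4 of 16, the replicate block among them (adjusted p = 0.0444).
AT5G19890 had 62.5, 50.1 and 53.4 CPM in 35S:miR858, 55.8, 28.5 and 70 in 35S:rMYB83 and 265, 60.6 and 269 in Col-0. Replicate 2 of Col-0 was far below the other 2 Col-0 libraries and within the range of both lines. The gene passed as lower in 35S:miR858 (log2 -1.84, SE 0.50, adjusted p = 0.0222) and in 35S:rMYB83 (log2 -1.95, SE 0.50, adjusted p = 0.0259), but neither call remained without Col-0 replicate 1 or 3, without any 1 library of 35S:miR858 for the first, or without 35S:rMYB83 replicate 1 or 2 or with only the genotypes compared in the fit for the second, with adjusted p of up to 0.078 and 0.0887.

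For the members without an assigned role that did not pass, log2 values in 35S:miR858 ran from -1.48 at AT1G14550, which had at most 15 counts in a library, to 0.57 at AT2G18980. AT2G18980 had 87.5, 107 and 85 CPM in 35S:miR858 and 42.3, 77.9 and 68.1 CPM in Col-0, groups that did not overlap, with an adjusted p of 0.0553, and passed as higher in 3 of 16 alternatives. In 35S:rMYB83 AT5G15180 was at -0.92 (adjusted p = 0.0518), with 30.1, 39.1 and 26.6 CPM in 35S:rMYB83 and 35.2, 82.7 and 63.8 CPM in Col-0, and Col-0 replicate 1 lay within the range of the line. It passed as lower there in 6 of 16 alternatives, with an adjusted p of 0.0137 with the replicate block and 0.00343 without Col-0 replicate 1. In 35S:miR858 it was at -0.76 (adjusted p = 0.0736) and passed as lower in 5 of 16, also without Col-0 replicate 1 (adjusted p = 0.00448). AT3G01190 and AT4G37520, among the highest in level, were at -0.12 and 0.30 in 35S:miR858 and -0.61 and -0.10 in 35S:rMYB83, where AT3G01190 passed as lower without Col-0 replicate 1 (adjusted p = 0.00916). Prx37 (AT4G08770), found in vascular bundles, was at 0.32 in 35S:miR858 and 0.01 in 35S:rMYB83. It passed as higher in 35S:miR858 without Col-0 replicate 3 (adjusted p = 0.01). Also in this group were AT1G34510, AT1G49570, AT1G68850, AT1G71695, AT2G35380, AT2G39040, AT3G28200 and AT4G37530, all with log2 values between -0.40 and 0.24 in 35S:miR858 and between -0.65 and 0.42 in 35S:rMYB83. Of these, AT2G35380 and AT2G39040 passed as lower in 35S:rMYB83 with the replicate block (adjusted p = 0.0346 and 0.0227). AT1G68850 passed as lower without Col-0 replicate 1 (adjusted p = 0.0317 in 35S:miR858 and 0.0451 in 35S:rMYB83) and with library totals alone (0.0209 and 0.0433). AT1G49570 passed as lower in 35S:rMYB83 without Col-0 replicate 2 (adjusted p = 0.0222). AT3G28200 passed as higher in 35S:miR858 without Col-0 replicate 1 (adjusted p = 0.0171).

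Members that separate 35S:rMYB83 from 35S:miR858 were sought by setting the lines against each other. PRX52 stood 10.3-fold higher in 35S:rMYB83 (log2 3.37, SE 0.49, adjusted p = 0.00544), and the lowest 35S:rMYB83 library had 12.8 CPM against 3.45 CPM in the highest library of 35S:miR858. AT2G18150 was 1.94-fold higher in 35S:rMYB83 (log2 0.96, SE 0.12, adjusted p = 0.00288), where it was nearer to the Col-0 level. AT2G37130 was 2.31-fold lower in 35S:rMYB83 (log2 -1.20, SE 0.19, adjusted p = 0.00829). These 3 calls held in all 16 alternative analyses.
Also higher in 35S:rMYB83 were AT5G51890 (log2 0.91, SE 0.19, adjusted p = 0.0259) and AT5G14130 (log2 0.91, SE 0.16, adjusted p = 0.0146), with no overlap between the lines. Both calls were lost without 35S:miR858 replicate 2 or 35S:rMYB83 replicate 1 or 2, and that of AT5G51890 also without 35S:miR858 replicate 1 or 3, with an adjusted p of up to 0.0958 and 0.0633.
Also lower in 35S:rMYB83 were AT4G30170 (log2 -0.66, SE 0.16, adjusted p = 0.046), which passed in 8 of 16 alternatives with an adjusted p of up to 0.157 (lost without any 1 library other than Col-0 replicate 1), and AT3G32980 (log2 -0.51, SE 0.094, adjusted p = 0.0159), which was lost without 35S:rMYB83 replicate 1 (adjusted p up to 0.0761). AT5G64120 was at -0.97 (SE 0.24, adjusted p = 0.0554) and AT4G36430 at 0.76 (SE 0.19, adjusted p = 0.0566), both with lines that did not overlap. AT5G64120 passed as lower in 8 of 16 alternatives, DESeq2, the replicate block and the fit of only these lines among them. Its adjusted p ran from 0.00129 (DESeq2) to 0.178. AT4G36430 passed as higher in 5 of 16, with an adjusted p from 0.00671 (DESeq2) to 0.175. AT3G03670, with 2 counts in each 35S:miR858 library, was at 3.29 (SE 0.91, adjusted p = 0.0829), also without overlap. It passed as higher in 3 of 16, DESeq2 (adjusted p = 0.00892) and the fit of only these lines (0.00906) among them. PRXCB was at -0.74 (SE 0.23, adjusted p = 0.118), without overlap. It passed as lower in 2 of 16, DESeq2 (adjusted p = 0.0242) and the fit of only these lines (0.0407). With all 9 libraries in edgeR, 0 of 5 tested Casparian strip members and 0 of 6 tested root hair members passed between the lines. Of all genes 2.5% were higher and 1.54% lower. RHS19 passed as higher in 35S:rMYB83 when 35S:miR858 replicate 1 was left out (log2 0.72, adjusted p = 0.026). At an unadjusted p under 0.05 in edgeR, 1 Casparian strip and 2 root hair members were lower, as were 1749 of all 19496 genes. DESeq2 called 0 of the first group and 1 of the second, AT5G64100, which was lower, as were 565 of all genes there.

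Many peroxidase genes lie side by side, and neighbours did not always move alike. Of the 60 loci, 20 lie within 5000 bases of another member. Of the 14 of these that were tested 6 rose and 3 fell in 35S:miR858 and 3 rose and 2 fell in 35S:rMYB83. Among all 51 tested members the counts were 14 and 9 in 35S:miR858 and 11 and 6 in 35S:rMYB83. Of all genes 11.6% rose and 13.5% fell in 35S:miR858, and 6.7% rose and 9.73% fell in 35S:rMYB83. AT5G64100, AT5G64110 and AT5G64120 follow one another on the minus strand of chromosome 5 between 25650567 and 25661007, with 1827 and 3190 bases between them, and all 3 rose in 35S:miR858, at log2 1.29, 1.21 and 2.40. In 35S:rMYB83 they were at 0.69, 0.52 and 1.44, of which the middle one did not pass. They share no 50-base window of exon sequence with one another. Levels differed widely within the trio, with 544 ± 83.1, 11.5 ± 2.79 and 738 ± 45.6 CPM in 35S:miR858 and 222 ± 53.9, 4.97 ± 2.02 and 139.5 ± 50.5 CPM in Col-0 (SD, n = 3), for exonic lengths of 1438, 1434 and 1342 bases.

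The other 9 members had too few counts to be tested. AT1G05240 had 0 counts in every library, below a floor of 3 counts over a genotype. Its neighbour AT1G05250 (PRX2), 2578 bases away on the other strand of chromosome 1, had 0 to 3 counts. Every 50-base window of the AT1G05250 exons and 58.9% of those of AT1G05240 occur more than once in the genome. Reads from those windows fit more than 1 place, so both values are uncertain. AT2G18140, AT3G50990, AT4G17690, AT5G47000 and AT5G58400 had at most 3 counts in any library, AT5G58390 at most 21 and PRXCA at most 16. AT3G50990 acts in mucilage release from seeds. Between PRXCA and PRXCB 7.23% and 7.47% of windows were shared, and between AT4G37520 and AT4G37530 4.97% and 4.9%. For AT2G18150 and AT2G18140, 3.15% and 4.65% of windows were shared with another member. Prx37 had 6.07% of its windows elsewhere in the genome and 0% in another member. Small parts of the counts of these genes are thus uncertain as well.

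Genes that act beside the peroxidases were counted in short lists, which were not tested as sets. Over all genes 11.6% rose and 13.5% fell in 35S:miR858, and 6.7% rose and 9.73% fell in 35S:rMYB83. Of 8 tested NADPH oxidases, which make superoxide at the plasma membrane, 1 rose and 3 fell in 35S:miR858 and 1 rose and 2 fell in 35S:rMYB83. RBOHA had 11, 17.8 and 17.3 CPM in 35S:miR858, 18.7, 20.3 and 22.6 in 35S:rMYB83 and 28, 33.5 and 36.2 in Col-0, with every library of both lines below Col-0, and fell in both (log2 -1.08, SE 0.18, adjusted p = 0.00215 in 35S:miR858, and -0.66, SE 0.18, adjusted p = 0.0315 in 35S:rMYB83). RBOHB rose in 35S:miR858 (log2 0.86, SE 0.15, adjusted p = 0.00264) and RBOHF in 35S:rMYB83 (log2 0.57, SE 0.11, adjusted p = 0.00618). RBOHF, a partner of peroxidases at the Casparian strip, was at 0.10 in 35S:miR858 (adjusted p = 0.558). The number that fell in 35S:rMYB83 was 1 without Col-0 replicate 2 or 3 or any 1 library of 35S:rMYB83.
Of 8 superoxide dismutases and catalases, which make and remove hydrogen peroxide, 3 rose in 35S:miR858 and 4 in 35S:rMYB83. CAT1 rose in both (log2 1.45, SE 0.10, adjusted p = 3.51e-05 in 35S:miR858, and 0.73, SE 0.10, adjusted p = 0.00162 in 35S:rMYB83), and CAT2 did too (log2 0.65 in 35S:miR858 and 0.73 in 35S:rMYB83, adjusted p = 0.0217 and 0.0191). FSD1 had 62.4, 52.6 and 67.9 CPM in 35S:miR858, 190.5, 212 and 172 in 35S:rMYB83 and 64, 20 and 31.7 in Col-0, highest in 35S:rMYB83 (log2 2.31, SE 0.34, adjusted p = 0.00192), and CSD2 rose in 35S:miR858 (log2 0.77, SE 0.088, adjusted p = 0.000275).
The class I ascorbate peroxidases, intracellular enzymes of the same superfamily, gave no call among 7 tested genes in either comparison with Col-0 in edgeR, with 0 at an unadjusted p under 0.05 and 0 in DESeq2. Over all 19496 genes, edgeR had 3395 higher and 3894 lower at an unadjusted p under 0.05 in 35S:miR858. In 35S:rMYB83 it had 2702 and 3224.

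Laccases oxidise monolignols with oxygen in place of hydrogen peroxide. They had 3 of 7 genes that fell in 35S:miR858, and 1 that rose and 2 that fell in 35S:rMYB83. For this and the following lists, the all-gene shares were 11.6% higher and 13.5% lower in 35S:miR858, and 6.7% and 9.73% in 35S:rMYB83. LAC2 fell in both (log2 -1.50, SE 0.34, adjusted p = 0.00992 in 35S:miR858, and -1.28, SE 0.34, adjusted p = 0.0292 in 35S:rMYB83). LAC4, a xylem laccase that is also in the vessel marker list, had 59.2, 68.4 and 62 CPM in 35S:miR858, 154, 118 and 88.6 in 35S:rMYB83 and 44.8, 84.2 and 76 in Col-0, above every other library in all 3 of 35S:rMYB83 (log2 0.81, SE 0.24, adjusted p = 0.0461). These counts leaned on single libraries. The laccases that fell in 35S:miR858 numbered 1 without Col-0 replicate 2, Col-0 replicate 3 or 35S:miR858 replicate 1. In 35S:rMYB83 the fallen ones numbered 0 without Col-0 replicate 2 or 3 or 35S:rMYB83 replicate 1 or 3 and 1 without 35S:rMYB83 replicate 2, and LAC4 did not pass without 35S:rMYB83 replicate 1 or 2 or any 1 library of 35S:miR858.
Of 9 transcription factors that act on peroxidase, lignin, Casparian strip or root hair genes, 2 rose and 1 fell in 35S:miR858. In 35S:rMYB83 edgeR called 0 (0 at an unadjusted p under 0.05, and 0 in DESeq2). At that unadjusted p edgeR had 2702 of all genes higher and 3224 lower in 35S:rMYB83. MYB63, an activator of lignin genes, fell in 35S:miR858 (log2 -1.60, SE 0.24, adjusted p = 0.0012). KUA1, a repressor of peroxidase genes in leaves, rose there (log2 0.46, SE 0.10, adjusted p = 0.00767), and MYB36, which switches on Casparian strip genes, did too (log2 0.50, SE 0.15, adjusted p = 0.0317). UPB1, a repressor of root peroxidases at the transition to differentiation, was at -0.03 in 35S:miR858 and 0.07 in 35S:rMYB83 (adjusted p = 0.897 and 0.718). The number that rose in 35S:miR858 was 1 without Col-0 replicate 1 or 35S:miR858 replicate 2 or 3.
Extensins and related proline-rich wall proteins, which peroxidases cross-link, had 4 of 10 genes that rose and 1 that fell in 35S:miR858, and 3 that rose and 1 that fell in 35S:rMYB83. EXT3 had 19690, 17250 and 14260 CPM in 35S:miR858, 18690, 19860 and 17350 in 35S:rMYB83 and 8169, 6030 and 8384 in Col-0, with every library of both lines above every Col-0 library (log2 1.18, SE 0.19, adjusted p = 0.00161 in 35S:miR858, and log2 1.31, SE 0.19, adjusted p = 0.00166 in 35S:rMYB83). LRX3 rose in 35S:miR858 (log2 1.09, SE 0.15, adjusted p = 0.000648) and LRX4 in 35S:rMYB83 (log2 1.06, SE 0.11, adjusted p = 0.000245). PRP1 was the gene that fell in 35S:miR858, and the list had 0 falls there without any 1 library of Col-0, without 35S:miR858 replicate 2 or 3 or without 35S:rMYB83 replicate 2 or 3, and 4 without 35S:miR858 replicate 1. In 35S:rMYB83 the falls numbered 0 without Col-0 replicate 3 or 35S:rMYB83 replicate 3 and 2 without 35S:miR858 replicate 1.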

How the data were processed

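Messenger RNA of roots was sequenced in 9 libraries, 3 per genotype. The submitters' processing notes name FastQC, Trimmomatic, TopHat2 2.0.14 and HTSeq, and the TAIR10 build; the labels state neither the other versions nor the settings, strand included. The deposited files hold raw counts per gene as whole numbers, 1 table per library. Summary lines of unassigned reads were left out. Reads outside genes amounted to 3.622% to 5.963% and ambiguous reads to 1.717% to 2.078% of these reads and the gene counts together. Of 28775 loci, 28009 matched the RefSeq annotation (TAIR10.1), which gave names, coordinates and promoter windows.

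Counts were analysed in R 4.3.3 with edgeR 4.0.16 (limma 3.58.1): filterByExpr on genotype, TMM factors, which ran from 0.9297 to 1.117, and the quasi-likelihood F test for genotype over all 9 libraries in 1 fit. Benjamini-Hochberg adjustment ran over all 19496 tested genes, and a gene passed at an adjusted p under 0.05. The SE is the log2 fold change over the square root of F. Every adjusted p in the text is from this test unless DESeq2 is named. The procedure was tested on simulated counts. Libraries of one genotype differed by at least 6.49 times counting error (chi-square per degree of freedom), so no library was another one sequenced again. This check cannot tell separate libraries of the same RNA from libraries of separately grown plants.

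Members with values in every library were, against Col-0, the 8 higher and 8 lower by fold among those that passed with non-overlapping groups and a mean no lower than 1 CPM, all members of the 4 role groups that passed, the 6 highest per exon length in Col-0, and up to 4 per direction between the lines. Up to 3 genes per partner list were named; UPB1, a few values that did not pass and the order of the neighbouring trio were added after their values were seen. The members, role groups and lists were chosen with earlier results of these data known. The alternatives were RLE size factors, library totals alone, no count filter, DESeq2 1.42.0, a fit of only the genotypes compared, the replicate number as a block, each library left out, and both libraries with most green transcripts left out.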

Additional observations from a re-analysis of the deposited data

How the results depend on the processing

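Across 16 alternative analyses no member call changed direction. Of the member values 2306 stayed on their side of the threshold, 72 gained and 67 lost a call, and 3 had no value because the gene missed the count filter of a fit with only the genotypes compared (AT1G14550 in 2 comparisons and AT3G03670, a call, in 35S:miR858 against Col-0). Scaling by library totals alone gave 1355 higher and 4148 lower genes in 35S:miR858 against Col-0, where 12 members rose and 12 fell. In 35S:rMYB83 against Col-0 it gave 842 higher and 2771 lower genes, where 11 members rose and 10 fell. DESeq2 called 565 genes and 6 members lower in 35S:rMYB83 than in 35S:miR858, and a fit of only these lines called 329 genes and 6 members lower. With both libraries richest in green transcripts left out (35S:rMYB83 replicate 1, Col-0 replicate 1), 179 genes were lower between the lines.

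With 1 library left out, the members that rose in 35S:miR858 numbered 11 to 14 and those that fell 5 to 10. In 35S:rMYB83 10 to 12 rose and 4 to 11 fell, and between the lines 2 to 5 were higher and 1 to 5 lower. Over all genes 1493 to 2277 rose and 1975 to 2869 fell in 35S:miR858, and 783 to 1537 rose and 1223 to 2254 fell in 35S:rMYB83. Between the lines 238 to 594 genes were higher and 84 to 398 lower. The causes of these shifts were not tested.

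Same-numbered libraries deviated together with correlations of -0.257 to 0.548, over 0.1 in 5 of 9 pairs, and 5 of 9 libraries correlated best with their own number. All 3 pairs of 35S:rMYB83 with Col-0 were over 0.1 (0.548, 0.241 and 0.141), although Col-0 replicate 3 correlated more with 35S:rMYB83 replicate 2 (0.464), and the other 2 comparisons had pairs below 0. With the number as a replicate block, 13 members rose and 10 fell in 35S:rMYB83 against Col-0 (1368 and 1947 of all genes). In 35S:miR858 against Col-0, 16 rose and 10 fell (2324 and 2678 of all genes). Between the lines 5 were higher and 4 lower (547 and 377 of all genes). The block ended no member call. With 3 libraries per genotype, members at a few counts, such as AT3G03670 in 35S:miR858, cannot be measured closely, and a member that did not pass is not shown to be equal between genotypes.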

Other observations

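Some members with low or uneven counts had a pattern across libraries that the genotype comparisons do not use. AT5G58390, a member too low to be tested, had 0, 0 and 4 counts in 35S:miR858, 21, 6 and 1 counts in 35S:rMYB83 and 12, 0 and 0 counts in Col-0. Its highest values, 21 and 12 counts, fell in 35S:rMYB83 replicate 1 and Col-0 replicate 1, the libraries with the highest shares of green shoot transcripts (0.833% and 0.482%). AT1G14550 had 0, 5 and 1 counts in 35S:miR858, 0, 15 and 11 counts in 35S:rMYB83 and 0, 5 and 15 counts in Col-0, so that it was at 0 in the first library of each genotype. AT5G19890 and AT1G49570 shared their lowest library of Col-0, with 264.6, 60.59 and 269.4 CPM and with 120.6, 32.55 and 111.3 CPM in its 3 libraries. AT3G01190, AT2G38390 and AT5G15180 were instead lowest in Col-0 replicate 1, where they had 131.8, 95.0 and 35.2 CPM, against 188.0 to 344.5 CPM for the first 2 genes and 63.8 and 82.65 CPM for the last in the other Col-0 libraries. The causes of these patterns were not tested.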
